A study of Mus musculus with 6 samples.

Results

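The genes described here are 10 enzymes of epidermal cornification: the transglutaminases *Tgm1*, *Tgm2*, *Tgm3* and *Tgm5*, the peptidylarginine deiminases *Padi1*, *Padi2* and *Padi3*, the proteases *Casp14* and *Asprv1*, and the sulfotransferase *Sult2b1*. They were chosen by symbol for their roles in this pathway, with earlier results of these data known, and make up 10 of the 24982 genes listed. RNA-seq had been run on 2 keratinocyte lines, with 3 replicate libraries each. The KSFM-Ca2+ cells came from the skin of newborn C57BL/6 mice and were derived and kept in the low-calcium medium KSFM-Ca2+. The DKSFM cells descend from the KSFM-Ca2+ cells, namely from those that outlived a change to the defined medium DKSFM, which holds more calcium, and they were kept there. Neither line received a treatment, and medium, adaptation and selection of cells cannot be told apart between them. Abnormal chromosome numbers were reported for KSFM-Ca2+ lines. The labels do not say that the replicates were separate cultures, and the p-values then measure only the spread between these libraries, which may be technical.

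Cornification is the last step of keratinocyte differentiation, in which the cell replaces its plasma membrane with a shell of crosslinked protein, the cornified envelope. Transglutaminases make this shell by joining glutamine and lysine residues of substrate proteins, in a reaction that needs calcium. Deiminases, also calcium-dependent, turn arginine into citrulline in keratins and matrix proteins of the upper layers. *Casp14* and *Asprv1* are proteases of the granular and cornified layers, and *Sult2b1* makes cholesterol sulfate, a lipid of the barrier.

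The deposited value is the mean number of reads that cover a base of the gene, and this coverage was scaled here between libraries (normalized coverage). Because it is given per base, levels can be set side by side between genes. Coverage summed over all genes was 1601676, 1238411 and 1057750 in the 3 KSFM-Ca2+ libraries, in the order of their replicate numbers, and 1174348, 1239438 and 1170675 in the 3 DKSFM libraries. The files round to a step of 0.1, which for the 10 enzymes is worth between 0.801 reads (*Padi2*) and 4.86 reads (*Tgm3*) over a median transcript, so an entry of 0 is given only as listed at 0. A gene was tested with limma on log2(normalized coverage + 0.1) where at least 3 libraries reached 0.5, and was called at an adjusted p under 0.01 (Benjamini-Hochberg over all 12409 tested genes) with at least a 2-fold change. Fold changes are DKSFM over KSFM-Ca2+, and on this log2 scale they understate the change of genes with low coverage. Positions are those of GRCm38 (mm10).

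Of the 10 enzymes, 7 passed the filter on low values. The DKSFM cells had more RNA of *Tgm1*, *Tgm2*, *Tgm5*, *Casp14*, *Asprv1* and *Sult2b1* and less of *Padi3*, and in each of these genes the 3 libraries of one line lay outside the range of the other. Among all tested genes, 13.2% were called higher and 10.5% lower in the DKSFM cells. No overlap with the DKSFM libraries on the higher side was seen in 41.2% of tested genes, and on the lower side in 42.1%, so separation of the lines by itself was common. Among the 11112 tested genes that reached 0.5 in every library, 9.28% were called higher and 8.59% lower. *Tgm5* passed the filter only through the DKSFM libraries and could therefore not have been anything but different. In bulk RNA, more cells with a transcript and more transcript per cell cannot be told apart.

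The order of the levels differed between the lines. In the KSFM-Ca2+ cells *Sult2b1* came first with a normalized coverage of 35.4 ± 2.52 (SD, n = 3 libraries), followed by *Padi3* with 9.61 ± 1.18, *Tgm1* with 4.81 ± 0.607 and *Tgm2* with 1.58 ± 0.0864. *Asprv1* (0.896 ± 0.163) and *Casp14* (0.877 ± 0.0458) overlapped in range there. In the DKSFM cells *Asprv1* came first with 229 ± 51.6. *Tgm2* (84.9 ± 1.9) and *Sult2b1* (83.4 ± 6.64) overlapped in range, as did *Tgm1* (23.4 ± 3.42) and *Tgm5* (22 ± 2.16). *Casp14* followed with 11 ± 0.116 and *Padi3* with 1.39 ± 0.317.

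**Figure D1:**
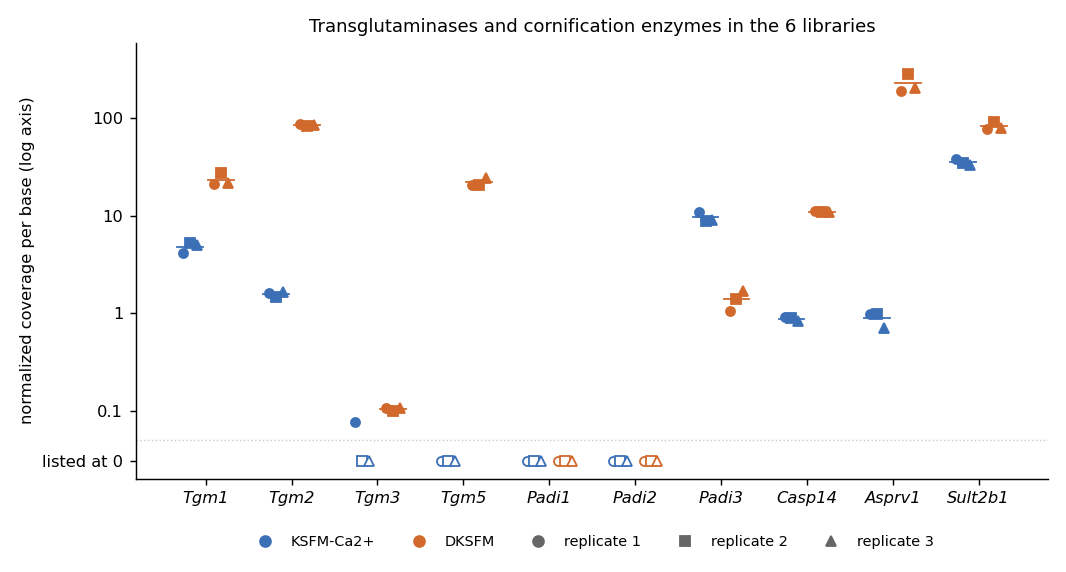
Normalized coverage per base (log axis) of the 10 enzymes, with a symbol for each replicate, a colour for each line and a short bar at the mean of 3 libraries; open symbols on the lowest row are libraries in which the gene was listed at 0. The widest gap between the lines that has a level above 0 on both sides is that of *Asprv1* (0.896 to 229), *Padi3* runs the other way, and *Padi1* and *Padi2* stay at 0.

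*Tgm2* had the largest change of the transglutaminases that were above 0 in both lines. Its product, tissue transglutaminase, is found in many cell types and is not specific to the epidermis. Normalized coverage was 1.6, 1.48 and 1.65 in the KSFM-Ca2+ libraries and 86.8, 83 and 84.9 in the DKSFM libraries. Every DKSFM library was thus far above every KSFM-Ca2+ library, and the mean was 53.8-fold higher (log2 fold change 5.66, standard error 0.06, adjusted p = 2.31e-10 by limma). Among the tested genes this took *Tgm2* from percentile 12.1 of mean coverage in the KSFM-Ca2+ cells to percentile 77.9 in the DKSFM cells. *Tgm2* lies on chromosome 2 from 158116402 to 158146436 (minus strand) and shares 15896 bases with *Rprd1b* on the plus strand. *Rprd1b* had 139, 134 and 140 in the KSFM-Ca2+ libraries and 129, 126 and 128 in the DKSFM libraries and was not called.

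*Tgm1*, on chromosome 14 from 55700009 to 55713926 (minus strand), encodes the membrane-bound keratinocyte transglutaminase, loss of which causes lamellar ichthyosis in humans. It was already present in the KSFM-Ca2+ cells, at 4.12, 5.24 and 5.07, and reached 21.1, 27.4 and 21.8 in the DKSFM cells. DKSFM replicate 2 was the highest, but the lowest DKSFM library still exceeded all KSFM-Ca2+ libraries. The mean was 4.87-fold higher (log2 fold change 2.26, standard error 0.13, adjusted p = 7.70e-07 by limma). Without DKSFM replicate 2 the log2 fold change was 2.15.

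*Tgm5*, whose product crosslinks envelope proteins and whose loss in humans gives a skin peeling disorder, was listed at 0 in all 3 KSFM-Ca2+ libraries. The DKSFM libraries had 20.9, 20.6 and 24.5. No fold is given against a line listed at 0, and the fitted log2 fold change of 7.78 (adjusted p = 2.33e-09 by limma) depends on the pseudocount; it was 4.52 with a pseudocount of 1. *Tgm5* lies on chromosome 2 from 121046111 to 121085841 (minus strand).

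*Tgm3*, the transglutaminase of hair and the upper epidermis (chromosome 2 from 130012349 to 130050399, plus strand), stayed at the rounding step. It was listed at 0.1, 0 and 0 in the KSFM-Ca2+ libraries and at 0.1 in each DKSFM library, so it was not tested. Of the 7 further genes of both families, *Tgm4*, *F13a1*, *Epb42* and *Padi6* were listed at 0 in every library. *Tgm6* had 0.0762, 0 and 0 in the KSFM-Ca2+ cells and 0.212, 0.2 and 0.212 in the DKSFM cells. For *Tgm7* the KSFM-Ca2+ libraries were listed at 0 and the DKSFM libraries had 0.212, 0.2 and 0.318. Both lay under the filter. Tested without a filter, *Tgm6* (log2 fold change 1.35) and *Tgm7* (log2 fold change 1.76) were called higher in the DKSFM cells, at levels of 2 or 3 rounding steps. The size of both values depends on the pseudocount.

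The make-up of the transglutaminase RNA differed along with its amount. Summed over *Tgm1*, *Tgm2*, *Tgm3* and *Tgm5*, normalized coverage was 5.79, 6.72 and 6.73 in the KSFM-Ca2+ libraries and 129, 131 and 131 in the DKSFM libraries, 20.3-fold higher in the mean. *Tgm1* made up 71.1, 77.9 and 75.4% of that sum in the KSFM-Ca2+ cells and 16.4, 20.9 and 16.6% in the DKSFM cells. The place of the leading gene was taken by *Tgm2*, which held 27.6, 22.1 and 24.6% in the KSFM-Ca2+ cells and 67.3, 63.3 and 64.6% in the DKSFM cells. *Tgm5* held 16.2, 15.7 and 18.6% in the DKSFM cells. In an exact permutation test over the 6 libraries each of these 3 shares gave p = 0.1 (two-sided, Benjamini-Hochberg 0.133 over the 4 shares tested), which is the smallest p that this test allows with 3 against 3 libraries, so it cannot reach 0.05. A lower share of *Tgm1* went with a higher level of *Tgm1*.

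**Figure D2:**
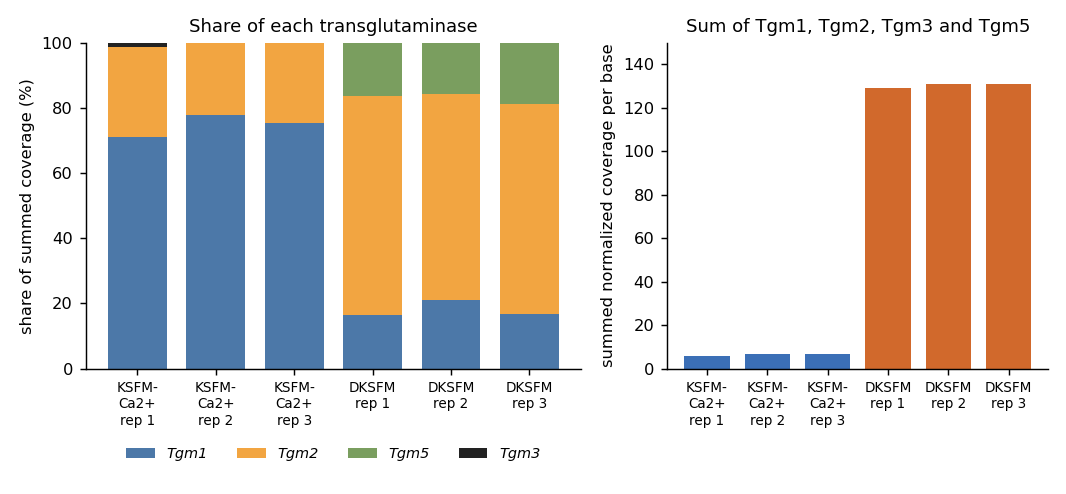
Left, the share (%) of each transglutaminase in the summed normalized coverage of *Tgm1*, *Tgm2*, *Tgm3* and *Tgm5* in each library; right, that sum. *Tgm1* falls from a mean share of 74.8% to 18%, *Tgm2* goes from 24.8% to 65.1%, and the sum goes from 6.41 to 130.

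Sequences upstream of the start sites are shown for *Tgm1*, *Tgm5*, *Asprv1* and *Casp14*, which were higher in the DKSFM cells, and for *Padi3*, which was lower. The 250 bases before each start site were taken from RefSeq (build GRCm38.p6). The set of promoter windows used here had an entry for 9 of the 10 enzymes, all but *Tgm2*. Capitals mark matches, on either strand, to any of 5 motifs: TGANTCA (AP-1), AACCNGTT (Grainyhead-like), GGGNGNGG (Krüppel-like and GC box), the TATA box letters TATAAA, and the CCAAT box, CCAAT. Overlapping matches run together in capitals. The window of *Tgm1* is chr14:55713493-55713742 and that of *Tgm5* chr2:121085842-121086091, both on the minus strand and written 5′ to 3′. Start sites are those of RefSeq and gene positions those of GENCODE, and they differ for some genes: the window of *Tgm1* lies inside the position given above for this gene.
Tgm1: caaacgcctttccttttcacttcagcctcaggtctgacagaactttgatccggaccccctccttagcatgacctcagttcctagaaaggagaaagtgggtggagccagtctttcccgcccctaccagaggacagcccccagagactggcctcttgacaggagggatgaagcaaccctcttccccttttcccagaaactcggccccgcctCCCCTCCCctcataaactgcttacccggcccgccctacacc
Tgm5: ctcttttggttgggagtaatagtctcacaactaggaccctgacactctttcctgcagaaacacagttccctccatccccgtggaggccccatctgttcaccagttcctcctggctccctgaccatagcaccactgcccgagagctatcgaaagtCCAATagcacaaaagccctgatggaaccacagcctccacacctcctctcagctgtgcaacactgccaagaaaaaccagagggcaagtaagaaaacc
The *Tgm1* window held a GGGNGNGG match from -41 to -34, and the *Tgm5* window a CCAAT match from -96 to -92, counted from the start site. A further start site of *Tgm1* is listed and is not printed. Of the 32851 promoter windows of the same length, 45.9% held GGGNGNGG and 33.8% held CCAAT. A match is a description of the letters and not a binding site.

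Of *Padi1*, *Padi2* and *Padi3*, only the last passed the filter, and it was lower in the DKSFM cells. *Padi3*, which acts in the upper epidermis and the hair follicle, had a normalized coverage of 11, 8.9 and 8.97 in the KSFM-Ca2+ libraries and 1.06, 1.4 and 1.7 in the DKSFM libraries. Each DKSFM library was below each KSFM-Ca2+ library, and the mean was 6.94-fold higher in the KSFM-Ca2+ cells (log2 fold change -2.72, standard error 0.17, adjusted p = 1.54e-06 by limma). *Padi1* and *Padi2* were listed at 0 in all 6 libraries, so that *Padi3* made up 100% of the summed coverage of the 3 genes in each library. *Padi4*, from the same cluster on chromosome 4 and best known from granulocytes, had 6.78, 7.91 and 7.43 in the KSFM-Ca2+ cells and 1.7, 2.3 and 2.23 in the DKSFM cells. The KSFM-Ca2+ mean of *Padi4* was 3.56-fold higher (log2 fold change -1.79, standard error 0.13, adjusted p = 4.28e-06 by limma).

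The 4 genes stand in the order *Padi4* (start 140745865), *Padi3* (140785365), *Padi1* (140812983) and *Padi2* (140906344), and only *Padi2* is on the plus strand. Beyond them, *Sdhb* was not called (log2 fold change -0.13) and *Atp13a2* was higher in the DKSFM cells (log2 fold change 1.29). The window before *Padi3*, chr4:140810649-140810898 on the minus strand, is shown because this was the enzyme that was lower in the DKSFM cells.
Padi3: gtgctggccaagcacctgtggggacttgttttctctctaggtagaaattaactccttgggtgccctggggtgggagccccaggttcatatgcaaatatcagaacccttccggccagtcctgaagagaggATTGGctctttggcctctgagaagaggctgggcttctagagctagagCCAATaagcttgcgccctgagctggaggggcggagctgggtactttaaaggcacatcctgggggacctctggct
It held a CCAAT match on each strand, from -121 to -117 and from -74 to -70, and no match to the other 4 motifs.

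Both proteases were near 1 in the KSFM-Ca2+ cells and far higher in the DKSFM cells. *Asprv1*, the skin aspartic protease (chromosome 6 from 86628164 to 86629710, plus strand), had 0.991, 0.989 and 0.708 in the KSFM-Ca2+ libraries and 193, 288 and 205 in the DKSFM libraries. DKSFM replicate 2 stood above the other DKSFM libraries here as for *Tgm1*, while the lines were far apart. The mean was 255-fold higher in the DKSFM cells (log2 fold change 7.84, standard error 0.17, adjusted p = 5.67e-09 by limma), and the log2 fold change was 7.66 without DKSFM replicate 2. In mean coverage *Asprv1* went from percentile 8.31 to percentile 92.1 of the tested genes.

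*Casp14*, a caspase of the cornifying epidermis that takes no part in ordinary apoptosis (chromosome 10 from 78711991 to 78718294, minus strand), had 0.915, 0.89 and 0.826 in the KSFM-Ca2+ cells and 11.1, 11 and 10.9 in the DKSFM cells. The replicates of each line lay close together, and the mean was 12.6-fold higher in the DKSFM cells (log2 fold change 3.51, standard error 0.09, adjusted p = 1.49e-08 by limma). With a pseudocount of 1 the log2 fold change of *Casp14* was 2.68. The windows before both proteases are chr6:86627924-86628173 on the plus strand and chr10:78718294-78718543 on the minus strand.
Asprv1: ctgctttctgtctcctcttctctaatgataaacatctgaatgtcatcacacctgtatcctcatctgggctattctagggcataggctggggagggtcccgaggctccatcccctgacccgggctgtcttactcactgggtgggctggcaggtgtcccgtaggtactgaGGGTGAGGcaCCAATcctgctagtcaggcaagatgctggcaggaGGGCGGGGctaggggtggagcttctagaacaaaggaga
Casp14: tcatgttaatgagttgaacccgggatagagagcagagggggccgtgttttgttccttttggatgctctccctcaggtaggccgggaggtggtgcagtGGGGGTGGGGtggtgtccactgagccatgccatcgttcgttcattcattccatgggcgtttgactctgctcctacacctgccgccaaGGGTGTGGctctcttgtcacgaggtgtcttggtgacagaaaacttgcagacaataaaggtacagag
The *Asprv1* window held GGGNGNGG from -82 to -75 and from -38 to -31, with CCAAT from -72 to -68 between them. In the *Casp14* window GGGNGNGG stood from -153 to -146, from -151 to -144 (overlapping) and from -66 to -59. Over the 11 windows listed for the enzymes, 6 held GGGNGNGG and 6 held CCAAT. A match to TATAAA was found in 1 window, that of *Tgm3* (12.4% of all promoter windows), TGANTCA in 1, at a start site of *Sult2b1* (6.75% of all), and AACCNGTT in 0 (1.79% of all).

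*Sult2b1* showed the smallest change of the enzymes called. In the KSFM-Ca2+ cells it had the highest level of the 10 enzymes, at percentile 58.2 of the tested genes. Its coverage was 38.1, 34.8 and 33.2 in the KSFM-Ca2+ libraries and 78.6, 90.9 and 80.6 in the DKSFM libraries. The mean was 2.36-fold higher in the DKSFM cells without overlap (log2 fold change 1.23, standard error 0.07, adjusted p = 8.45e-07 by limma). In limma's treat, which asks whether a change exceeds 2-fold, its adjusted p was 0.031, so the call was lost. *Sult2b1* lies on chromosome 7 from 45729983 to 45784669 (minus strand), in a stretch where the 130 tested genes within 10 Mb on either side had a median log2 fold change of 0.57. It shares 932 bases with *Lmtk3* on the opposite strand, which had a mean of 0.78 in the KSFM-Ca2+ cells and 1.45 in the DKSFM cells and was not called.

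Since KSFM-Ca2+ lines were reported not to be diploid, each enzyme was set beside the genes around it. Apart from *Sult2b1*, the medians within 10 Mb lay between -0.33 (*Tgm3*) and 0.33 (*Asprv1*) on the log2 scale. For the deiminases they were 0.13 (*Padi1* and *Padi3*) and 0.14 (*Padi2*), while *Padi3* itself fell by 2.72. Of the 32 nearest tested neighbours that are not among the 10 enzymes, 9 were called higher, 1 (*Padi4*) was called lower and 22 were not called. The shares over all tested genes were 13.2% higher and 10.5% lower. Chosen among the neighbours after their values were seen, *Tmem62* beside *Tgm5* (log2 fold change 3.25), *Lbp* beside *Tgm2* (3.99) and *Mxd1* beside *Asprv1* (2.52) had the largest changes. *Lbp* and *Tmem62* were low in the KSFM-Ca2+ cells (mean 0.0584 and 0.287), so the size of their changes depends on the pseudocount. *Lbp*, counted among the 9, passed the filter only through the DKSFM libraries and could only come out higher. Copy number was not measured here, and its part in these values was not tested.

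**Figure D3:**
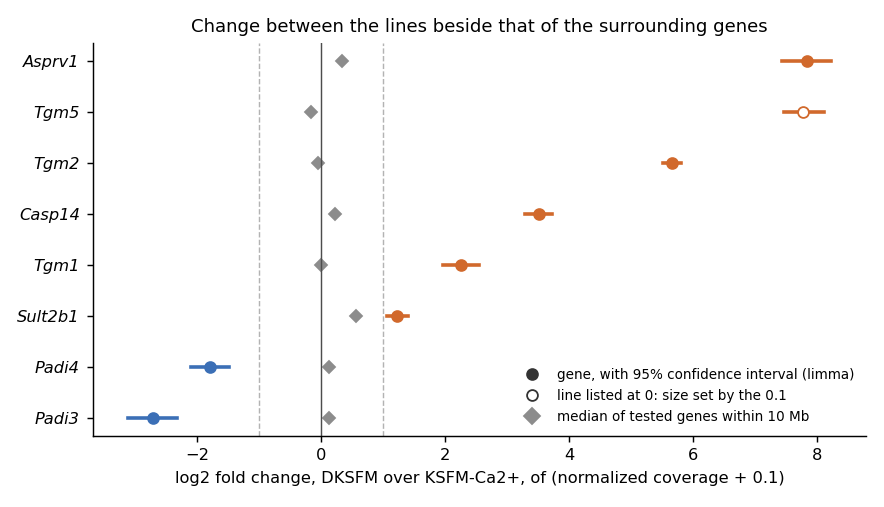
Log2 fold change (DKSFM over KSFM-Ca2+) of the tested enzymes and *Padi4* with the 95% confidence interval from limma, and as grey diamonds the median of the tested genes within 10 Mb on either side; dashed lines mark a 2-fold change and the open circle (*Tgm5*) a gene whose size depends on the pseudocount. The diamonds lie between -0.16 and 0.57, and that of *Sult2b1* (0.57) is nearest to its gene (1.23).

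The genes most alike to 3 of the enzymes were looked up by Euclidean distance over the 6 libraries on the log2 scale. Nearest to *Tgm1* were *Nipal2* (distance 0.391, mean coverage 5.2 in the KSFM-Ca2+ and 24.8 in the DKSFM cells), *Rapgefl1* (0.425) and *Fam171a2* (0.429). Nearest to *Tgm2* were *Myh14* (distance 0.308, mean 1.57 and 76.2), *Rgma* (0.956) and *Epas1* (1.07). For *Casp14* they were *Deptor* (distance 0.628, mean 0.732 and 10.2), *Serpina3g* (0.664) and *Bcl11a* (0.695). *Serpina3g* belongs to a family of close copies, and its coverage is uncertain for that reason.

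The next genes encode proteins that these enzymes act on or that are built in with their products, of which only the RNA was measured. Of 59 listed envelope and keratohyalin genes, 33 passed the filter, of which 17 were called higher, 3 were called lower and 13 were not called. Their median log2 fold change was 1.29, beside -0.001 for all tested genes, of which 13.2% were called higher and 10.5% lower. A gene that passed the filter through the DKSFM libraries alone could only come out higher, so the genes that reached 0.5 in every library are also given. Of these 22 substrates, 12 were called higher, 2 lower and 8 not called, and their median log2 fold change was above 1. The median of all genes that reached 0.5 in every library was -0.02, and 9.28% of them were called higher and 8.59% lower. The other 26 listed envelope and keratohyalin genes lay under the filter and were not tested. *Crct1* had 0.0762, 0.396 and 0 in the KSFM-Ca2+ cells and 57.9, 72.8 and 58.7 in the DKSFM cells. *Rptn*, which encodes repetin, was listed at 0 in the KSFM-Ca2+ cells and had 21.7, 25.8 and 20.2 in the DKSFM cells. *Cnfn*, which encodes cornifelin, went from 0.297 to 20.7 in mean coverage (69.6-fold), and the small proline-rich *Sprr1a* from 3.24 to 172 (53.1-fold). *Crct1*, *Rptn* and *Cnfn* passed the filter only through the DKSFM libraries and could only come out higher. The fold of *Cnfn* rests on KSFM-Ca2+ values of 0.457, 0.198 and 0.236, near the rounding step, and is uncertain for that reason.

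The envelope scaffold genes *Evpl* and *Ppl*, which encode envoplakin and periplakin, were 2.18-fold and 2.88-fold higher in the DKSFM cells. *Evpl* was not called by treat (adjusted p = 0.196 by limma). *Lor*, which encodes loricrin, the main protein of the finished envelope, was called higher but stayed low, at 0.305, 0.0989 and 0.59 in the KSFM-Ca2+ cells and 3.82, 3.9 and 4.24 in the DKSFM cells. *Cst6*, a cysteine protease inhibitor that is also a transglutaminase substrate, went from 3.52 to 12.2 (3.47-fold). *Ivl*, which encodes involucrin, an early substrate, had 21.1, 21.4 and 21.5 in the KSFM-Ca2+ libraries and 13.2, 13.4 and 13.9 in the DKSFM libraries. These ranges of *Ivl* did not overlap, but the change (log2 fold change -0.66, adjusted p = 3.70e-06 by limma) was under 2-fold. The 3 genes called lower were the small proline-rich *Sprr2e*, *Sprr2h* and *Sprr2k*. *Sprr2e* (1.53 and 0.239 in mean coverage) was named after its values were seen. It passed the filter only through the KSFM-Ca2+ libraries and could only come out lower. *Sprr2h* had a mean of 80.4 in the KSFM-Ca2+ cells and 19.4 in the DKSFM cells, and *Sprr2k* had 5.03 and 1.01. Reads of *Sprr2* genes can be shared among close copies, so these values are uncertain. Of the keratins of the spinous layer, *Krt10* had 3.35, 3.46 and 3.66 in the KSFM-Ca2+ cells and 4.57, 6.1 and 4.35 in the DKSFM cells. The DKSFM libraries of *Krt10* were higher without overlap (log2 fold change 0.49, adjusted p = 0.00963 by limma), but the change was under 2-fold. *Krt1* was listed at 0 in the KSFM-Ca2+ cells and had 0.531, 0.799 and 0.212 in the DKSFM cells, under the filter. Tested without a filter, *Krt1* was called higher (log2 fold change 2.49, adjusted p = 0.000749 by limma). Against a line listed at 0, the size of this value depends on the pseudocount.

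**Figure D4:**
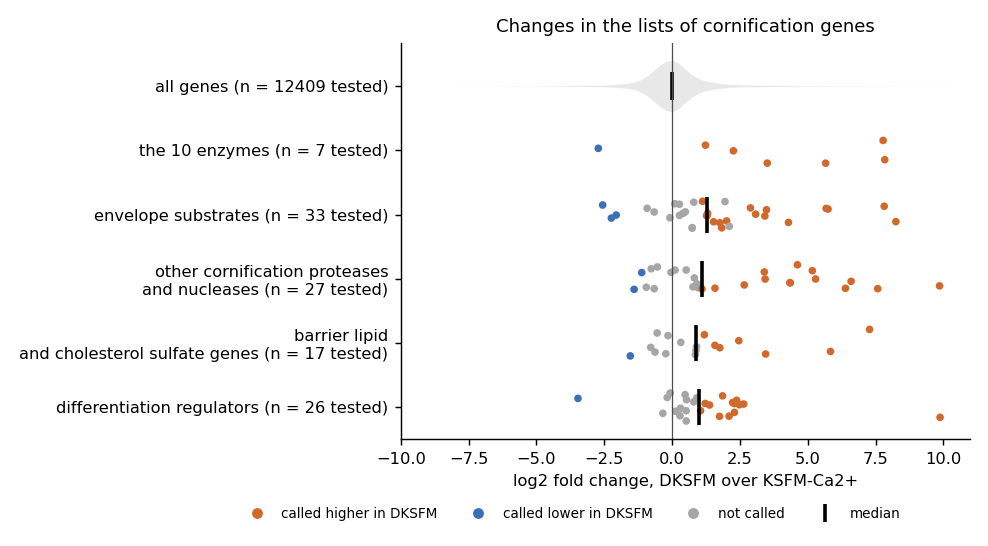
Log2 fold change (DKSFM over KSFM-Ca2+) of each tested gene of the 10 enzymes and of 4 lists of cornification genes, coloured by call, below the distribution of all 12409 tested genes; vertical bars are medians, given for the lists and for all tested genes, and include genes that passed the filter through 1 line alone. The list medians lie from 0.88 to 1.29 and that of all tested genes at -0.001.

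The next list of 28 genes holds other proteases of the cornifying layers, their inhibitors and nucleases, and also the histidine ammonia-lyase gene *Hal*. All but *Hal*, named after its values were seen, or 27 genes, passed the filter, of which 14 were called higher, 2 were called lower and 11 were not called (median log2 fold change 1.10). Most of the higher calls were of genes that did not reach 0.5 in every library: of the 17 that did, 4 were called higher, 2 lower and 11 not called (median 0.52). For comparison, 13.2% of all tested genes were called higher and 10.5% lower. The shares among all genes that reached 0.5 in every library were 9.28% and 8.59%. Among the genes named by their change are kallikreins, a family of serine proteases of which some members cut the corneodesmosomes between shedding cells. *Klk14*, *Klk6* and *Klk7* passed the filter only through the DKSFM libraries and could only come out higher. The size of their changes depends on the pseudocount. *Klk14* was listed at 0 in the KSFM-Ca2+ cells and had 87.3, 109 and 83.5 in the DKSFM cells. *Klk10* went from 0.762, 1.19 and 1.3 to 83.4, 113 and 96.7, and *Klk7* from 0, 0.198 and 0.118 to 15.9, 26.4 and 14. *Klk6* had 0.152, 0 and 0 in the KSFM-Ca2+ libraries and 20.7, 43.1 and 19.6 in the DKSFM libraries, where replicate 2 was the highest. The kallikrein inhibitor *Spink5* was lower in the DKSFM cells (mean 80.4 in the KSFM-Ca2+ and 30.4 in the DKSFM cells, log2 fold change -1.40, adjusted p = 2.48e-07 by limma). So was the DNA exonuclease *Trex2* (20.6 and 9.49, log2 fold change -1.12), whose call was lost by treat, by leaving out DKSFM replicate 1 (a change then under 2-fold) and with only the libraries whose files are marked as combined (adjusted p = 0.017 by limma).

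In a list of genes for barrier lipids and cholesterol sulfate, mostly enzymes with some transporters and a cofactor, 17 of 20 genes were tested, of which 7 were called higher, 1 was called lower and 9 were not called. The median log2 fold change was 0.88. Of the 12 that reached 0.5 in every library, 2 were called higher, 1 lower and 9 not called, with a median of 0.08. Among all genes that did so, 9.28% were called higher and 8.59% lower, and among all tested genes 13.2% and 10.5%. By treat, 4 of the 17 tested lipid genes were called higher. Closest to *Sult2b1* in function are *Papss1* and *Papss2*, which both make the sulfate donor of sulfotransferases. *Papss1*, named after its values were seen, was high in both lines, with 129, 125 and 123 in the KSFM-Ca2+ cells and 233, 229 and 240 in the DKSFM cells, and was not called (log2 fold change 0.90). *Papss2* had 0.0762, 0.0989 and 0.118 in the KSFM-Ca2+ cells and 10.6, 10.4 and 12.7 in the DKSFM cells. *Sts*, which encodes the sulfatase that splits cholesterol sulfate, is not analysed here. The epidermal lipase *Lipm* was listed at 0 in the KSFM-Ca2+ cells and had 15.1, 16.4 and 14.9 in the DKSFM cells. *Papss2* and *Lipm* passed the filter only through the DKSFM libraries and could only come out higher. The size of these changes depends on the pseudocount. *Slc27a4*, a fatty acid transporter, was 2.29-fold higher in the DKSFM cells (10.5 and 24 in mean coverage) and was not called by treat (adjusted p = 0.0265 by limma). *Abca12*, the lipid transporter of lamellar granules, was the gene called lower, with 20.3, 20.7 and 18.9 in the KSFM-Ca2+ libraries and 6.26, 7.19 and 7 in the DKSFM libraries.

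Regulators of epidermal differentiation, most of them nuclear, with the receptors *Casr* and *Notch1* among them, were the last list. Of 27 genes 26 were tested, of which 13 were called higher, 1 was called lower and 12 were not called (median log2 fold change 0.98). Of the 24 that reached 0.5 in every library, 12 were called higher, 0 lower and 12 not called, again with a median of 0.98. Over all tested genes 13.2% were called higher and 10.5% lower, with a median of -0.001. With 0.5 in every library these values were 9.28%, 8.59% and -0.02. The homeobox gene *Barx2* was listed at 0 in the KSFM-Ca2+ cells and had 92.6, 91.5 and 98.3 in the DKSFM cells. *Barx2* passed the filter only through the DKSFM libraries and could only come out higher. Its log2 fold change of 9.88 was 6.57 with a pseudocount of 1. *Cebpa*, a bZIP factor of suprabasal cells, went from 81.5 to 510 in mean coverage (6.25-fold). The homeodomain-only gene *Hopx* went from 73.9 to 414 (5.59-fold) and the zinc finger gene *Zfp750*, a regulator of late differentiation, from 6.96 to 36.6 (5.26-fold). The gene called lower was *Satb1* (4.38 and 0.346). With 0.531, 0.4 and 0.106 in the DKSFM libraries, *Satb1* did not reach 0.5 in every library. The calcium-sensing receptor gene *Casr* was listed at 0 in all 6 libraries. *Satb1*, *Casr* and *Notch1* were named after their values were seen.

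**Figure D5:**
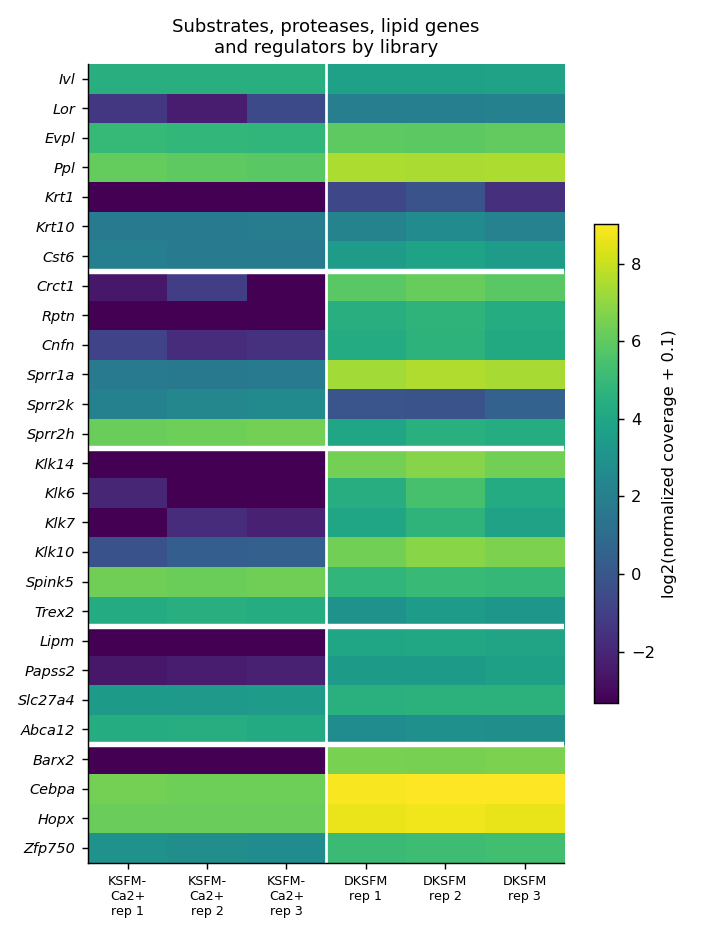
Log2(normalized coverage + 0.1) in the 6 libraries for named genes of the 4 lists; from top to bottom the blocks are substrates chosen by name, further envelope substrates, proteases and nucleases, lipid genes, and regulators. *Klk14*, *Rptn*, *Lipm* and *Barx2* are at the lowest colour (listed at 0) in all 3 KSFM-Ca2+ libraries, and *Ivl*, *Sprr2h*, *Spink5* and *Abca12* are brighter on the KSFM-Ca2+ side.

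Marker genes were read to check the cell type given in the labels. Both lines had the basal keratinocyte genes, whose summed coverage over 6 genes was 18916, 19320 and 18960 in the KSFM-Ca2+ libraries and 44798, 40887 and 45176 in the DKSFM libraries, and 2 of these 6 were called higher in the DKSFM cells. The most abundant, *Krt14*, had 11745, 12195 and 11984 in the KSFM-Ca2+ cells and 30404, 27980 and 30773 in the DKSFM cells, with a log2 fold change of 1.31 that was 0.95, and no longer called, under quantile normalization. The 6 suprabasal markers summed to 185, 180 and 185 in the KSFM-Ca2+ cells and 917, 1043 and 904 in the DKSFM cells, to which *Sbsn* gave 58.5, 54.3 and 61.5 against 781, 830 and 774. Of these markers 5 were tested and 3 were called higher. Among the 3, *Dsg1a* and *Dsc1* passed the filter only through the DKSFM libraries and could only come out higher. All 4 simple epithelial keratins were tested, of which 3 were called higher and *Krt7*, the most abundant, was called lower (850, 879 and 992 against 314, 310 and 309). The 3 called higher, *Krt8*, *Krt18* and *Krt19*, passed the filter only through the DKSFM libraries and could only come out higher.

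Markers of other cell types were low or listed at 0, apart from *Cd68*, *Pecam1* and, in the KSFM-Ca2+ cells, *Twist2*. Of 9 fibroblast genes, 6 were listed at 0 in every library, *Col1a1*, *Col1a2* and *Col3a1* among them. The sum of the 9 was 8.76, 8.21 and 8.38 in the KSFM-Ca2+ libraries and 2.44, 2.2 and 2.23 in the DKSFM libraries, with *Twist2* (7.62, 7.32 and 7.08 against 0.106, 0 and 0) called lower. *Twist2* passed the filter only through the KSFM-Ca2+ libraries and could only come out lower. The other tested fibroblast gene, *Pdgfra*, named after its values were seen, had 1.14, 0.89 and 1.3 against 2.34, 2.1 and 2.23, without overlap, and was not called (log2 fold change 0.95). The 6 melanocyte genes summed to 0.89 at most, with *Dct* and *Tyr* listed at 0 and *Pmel* the most abundant (0.212 to 0.708). The immune genes *Adgre1* and *Cd3e* were listed at 0, and the 6 immune genes summed to 10.9, 11.2 and 12.6 in the KSFM-Ca2+ cells and 13.6, 18.9 and 20.6 in the DKSFM cells, nearly all from *Cd68*, which was not called. The 4 endothelial genes summed to 2.82, 3.16 and 3.3 against 8.28, 8.29 and 7.42. *Cdh5* among them was listed at 0, and *Pecam1* (2.59, 2.67 and 3.07 against 7.86, 7.99 and 6.89) was called higher, though not by treat (adjusted p = 0.013 by limma). The part of any of these markers in the values of the 10 enzymes was not tested.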

How the data were processed

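For each of the 6 libraries the authors deposited the mean read coverage per base of 24982 genes, rounded to 0.1 and not scaled. Per the labels, directional poly(A) libraries were read as single reads, and the submitters' processing notes name bcl2fastq, STAR, DESeq2 and mm10. How coverage was computed is not stated. Coverage is not a count, so a count model was not used and no counting interval can be given; the rounding step limits low values. Files of KSFM-Ca2+ replicate 3 and of the 3 DKSFM replicates are marked as combined, which is not explained.

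Libraries were scaled by a trimmed mean of M values (factors 0.991 to 1.013), and DKSFM was compared with KSFM-Ca2+ with limma 3.58.1 (R 4.3.3) with its trend option on log2(normalized coverage + 0.1), for genes at 0.5 or more in at least 3 libraries; the script was tested on simulated data. Shares of summed coverage were compared by exact permutation. Genes were placed by GENCODE M21 (24490 of the symbols matched). Tables and figures were made with Python 3.11.15 and matplotlib 3.10.9.

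The members and lists were chosen with earlier results of these data known. Genes named were the 10 enzymes, the other family members above 0, 8 partners and substrates, from each of the 4 lists (envelope substrates, proteases and nucleases, lipid genes, regulators) up to 4 genes in each direction whose change was largest among those called without overlap (only where the mean of the line with more reached 5), the 3 genes closest to *Tgm1*, *Tgm2* and *Casp14*, and the most abundant gene of each marker list. Alternatives changed the scaling, filter, pseudocount, intensity trend, block, threshold, libraries and the weighting of shares. *Sts* is not analysed here.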

Additional observations from a re-analysis of the deposited data

How the results depend on the processing

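The enzymes were refitted under 18 alternatives. Of 125 values for the 7 tested enzymes, 124 kept their direction and call, 1 kept its direction only (*Sult2b1* under treat, adjusted p = 0.031 by limma) and 0 reversed; *Tgm5* could not be tested with the filter on every library. Log2 fold changes ranged from 4.52 to 7.84 for *Tgm5*, from 6.90 to 8.11 for *Asprv1*, from 2.68 to 3.58 for *Casp14* and from -2.93 to -2.16 for *Padi3*. Over the 49 named genes, 862 of 870 values kept their call, 8 became weaker and 0 reversed. Genes named for the size of their change were chosen among those called, so this stability was partly set by the choice. Of 252 counts of calls, 240 stayed within 1.5 times the main count. With the filter on every library, which tests fewer genes, 1032 genes were called higher in all, with 4 of the proteases and nucleases (14 in the report), 2 of the lipid genes (7) and 0 of the regulators called lower (1). Under treat, which is a stricter test, 1062 genes were called higher and 785 lower, with 4 lipid genes higher and 1 protease or nuclease lower (2). With the combined libraries only, 1 against 3, the lone library being taken to vary like the others, 1 protease or nuclease and 0 regulators were called lower. Without a filter, 2 other family members (*Tgm6* and *Tgm7*) were called higher (0). With 1 library left out, proteases and nucleases called lower ranged from 1 to 2. The difference in the share of *Tgm3*, -0.359 percentage points, was -0.899 when shares were weighted by transcript length and ranged from -0.578 to 0.0797 with 1 library left out; it reversed without KSFM-Ca2+ replicate 1, the only KSFM-Ca2+ library in which *Tgm3* was listed above 0. With the replicate number as a block, 2945 genes were called (2943 without) and 2925 in both, and no call of the enzymes changed. Deviations of libraries with the same number correlated at -0.005, 0.024 and -0.006, and those of other pairs at -0.037 to 0.040. No pairing by number was seen, but 3 libraries in each line are too few to exclude it.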

Other observations

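DKSFM replicate 2 was the highest DKSFM library for several differentiation genes, a pattern chosen after the values were seen. It exceeded both other DKSFM libraries by at least 1.2-fold in 468 of 12409 tested genes (3.77%), against 380 (3.06%) for replicate 1 and 324 (2.61%) for replicate 3. In the envelope substrates this held for 10 of 33 genes (30.3%), against 2 for replicate 1 and 1 for replicate 3, and in the proteases and nucleases for 9 of 27 genes (33.3%), against 0 and 0. It held for 2 of 17 lipid genes, 0 of 26 regulators and 4 of 5 suprabasal markers. Among genes whose DKSFM mean reached 5 it held for 113 of 9789 (1.15%), for 5 of 21 envelope substrates and for 5 of 21 proteases and nucleases. At that level it held for 0 of 13 lipid genes, 0 of 22 regulators and 2 of 3 suprabasal markers. Of the 7 tested enzymes at any level it held for 2, against 0 for replicate 1 and 1 for replicate 3. The cause was not tested.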
